A study of Homo sapiens with 4 samples.

Results

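CTCF peaks inside very long human genes were examined in MDA-MB-435, an established melanoma cell line. Chromatin immunoprecipitation and sequencing (ChIP-seq) of growing, unsynchronised cells with a rabbit antibody to CTCF gave the 1 peak list used here, that of asynchronous replicate 1. The series held 2 asynchronous samples and 2 mitotic samples precipitated with an antibody to phosphorylated CTCF. The second asynchronous sample and both mitotic ones were not analysed here. Peaks were kept when their centre lay on an autosome, inside a protein-coding gene annotated at 500 kb or longer, and over 5 kb from any end of a protein-coding gene. The rule kept 2368 of 41313 autosomal peaks, or 5.73%, in 299 of 303 very long genes. A further 121 peaks of these genes lay within 5 kb of a gene end and were left out, with a median of 16.7 normalised tags. Sequencing depth was 19210460 tags with 11.66% of them inside called peaks, per the file headers. With 1 library there is no replicate check, and the 95% intervals given below cover counting error only.

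CTCF is a DNA-binding protein with a row of zinc fingers. It marks insulators and boundaries of chromatin domains, and it stops the loop-forming cohesin ring at sites that face each other. Very long genes consist mostly of introns. Many of them encode proteins of synapses, cell adhesion and axon guidance, and several coincide with common fragile sites, regions that break when DNA replication is slowed. CTCF sites inside genes are known as loop anchors and, at internal promoters, as part of the choice between alternative starts.

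Sequence could be shown for members that overlapped RefSeq windows of 300 bases (GRCh38.p14, the assembly of hg38) at annotated transcription starts inside these genes. These windows run from 250 bases before to 50 bases after a start. They are shown because they hold strong and weak members, with and without the core of the CTCF motif. The core was searched on both strands as CC, then 3 bases of any kind, AG, 2 bases of any kind, and GGC. Capitals mark a match. The first window is the internal start of THSD4, which encodes an extracellular matrix protein, at chr15:71115221-71115520 on the plus strand, under a peak of 91.4 normalised tags. The second is an internal start of SLC14A2, a urea transporter gene, at chr18:45212745-45213044 on the plus strand, under a peak of 86.7 normalised tags, where the match read on the opposite strand. The third is the start of the RNA gene LINC01570 within the splicing regulator gene RBFOX1, at chr16:5616201-5616500 on the minus strand, under a peak of 38.3 normalised tags. The next is the start of the RNA gene SLIT3-AS2 within SLIT3, the gene of an axon guidance ligand, at chr5:168706677-168706976 on the plus strand, under a peak of 22.6 normalised tags. Weaker peaks overlapped windows of internal starts of NTM, which encodes the adhesion protein neurotrimin (chr11:131585312-131585611, plus strand, 19.3 normalised tags), and of SEMA6D, a semaphorin gene (chr15:47717255-47717554, plus strand, 15.6 normalised tags). The SEMA6D peak ended before the start itself. The last window is an internal start of CAMTA1, a transcription factor gene, at chr1:7669480-7669779 on the plus strand. It lay under a peak of 51.5 normalised tags and held no match.
THSD4: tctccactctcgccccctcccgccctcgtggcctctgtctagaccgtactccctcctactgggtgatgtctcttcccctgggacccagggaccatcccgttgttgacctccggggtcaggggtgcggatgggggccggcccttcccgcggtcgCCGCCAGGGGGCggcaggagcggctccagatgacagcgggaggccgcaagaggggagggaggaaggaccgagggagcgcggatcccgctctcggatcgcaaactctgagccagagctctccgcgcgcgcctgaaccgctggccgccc
SLC14A2: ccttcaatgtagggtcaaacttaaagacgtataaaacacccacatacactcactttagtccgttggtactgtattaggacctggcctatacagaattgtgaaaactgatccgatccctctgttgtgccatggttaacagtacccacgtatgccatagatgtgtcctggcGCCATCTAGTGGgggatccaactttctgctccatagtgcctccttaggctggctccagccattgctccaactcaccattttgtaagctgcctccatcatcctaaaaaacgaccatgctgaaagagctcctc
LINC01570: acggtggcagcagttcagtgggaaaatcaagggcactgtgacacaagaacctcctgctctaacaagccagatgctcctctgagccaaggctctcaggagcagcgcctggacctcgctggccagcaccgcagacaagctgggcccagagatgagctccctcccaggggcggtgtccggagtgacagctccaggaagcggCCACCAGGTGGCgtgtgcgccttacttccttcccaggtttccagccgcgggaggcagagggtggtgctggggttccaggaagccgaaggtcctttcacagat
SLIT3-AS2: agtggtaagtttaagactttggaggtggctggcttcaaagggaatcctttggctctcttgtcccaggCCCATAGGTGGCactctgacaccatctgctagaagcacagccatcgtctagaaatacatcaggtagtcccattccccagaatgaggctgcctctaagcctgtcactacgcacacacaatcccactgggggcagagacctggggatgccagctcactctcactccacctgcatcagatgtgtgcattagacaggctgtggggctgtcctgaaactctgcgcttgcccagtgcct
NTM: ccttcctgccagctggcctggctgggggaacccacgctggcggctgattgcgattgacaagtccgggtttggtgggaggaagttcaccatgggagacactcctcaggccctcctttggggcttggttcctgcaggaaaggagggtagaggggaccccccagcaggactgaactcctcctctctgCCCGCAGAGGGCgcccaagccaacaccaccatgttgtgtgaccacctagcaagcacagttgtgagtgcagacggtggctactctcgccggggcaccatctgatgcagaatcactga
SEMA6D: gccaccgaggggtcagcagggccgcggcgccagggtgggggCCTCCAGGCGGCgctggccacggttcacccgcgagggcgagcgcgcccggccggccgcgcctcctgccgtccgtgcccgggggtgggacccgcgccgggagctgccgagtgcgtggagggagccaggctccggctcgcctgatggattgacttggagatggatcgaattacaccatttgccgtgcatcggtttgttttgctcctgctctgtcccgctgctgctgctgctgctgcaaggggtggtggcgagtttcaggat
CAMTA1: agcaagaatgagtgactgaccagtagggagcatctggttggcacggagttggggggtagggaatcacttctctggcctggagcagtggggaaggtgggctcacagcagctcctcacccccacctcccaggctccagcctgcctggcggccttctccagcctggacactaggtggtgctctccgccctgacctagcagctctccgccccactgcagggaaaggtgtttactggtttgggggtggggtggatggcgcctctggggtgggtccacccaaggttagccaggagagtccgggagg

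The match began 97 bases before the start in THSD4, 81 in SLC14A2, 52 in LINC01570, 183 in SLIT3-AS2, 66 in NTM and 209 in SEMA6D. These 6 windows were the ones with a match among 31 start windows inside very long genes that overlapped a peak, a share of 19.4% (Clopper-Pearson 95% interval 7.45 to 37.5). The 31 windows lay over 25 members, so some shared a peak, and the intervals of window shares treat windows as independent. Of the windows inside very long genes without a peak, 45 held a match, or 5.47% (4.02 to 7.25). Over all 33725 autosomal start windows the match was present in 10.6%, in 26.9% of those with a peak and in 8.58% of those without. A match describes the letters of a window, and a window without one may hold a site written differently or beside it. Windows with a peak were also richer in G and C, with a median of 61.3%, against 45.3% in windows of very long genes without a peak and 58.7% in all autosomal windows. The part of base composition in these shares was not tested.

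Peaks at internal starts were a small part of the members, but the start windows were also a small part of the bases of these genes. Of 854 start windows deep inside very long genes, 31 overlapped a peak, or 3.63% (2.48 to 5.11), against 183 of 2708 windows, or 6.76% (5.84 to 7.77), deep inside genes of 100 to 500 kb. The starts of the very long genes' own shorter transcripts carried 25 of the 31, among 343 windows (7.29%, 4.77 to 10.6). Starts of other genes nested within them, mostly RNA genes, carried 6 among 511 windows (1.17%, 0.432 to 2.54). The 31 windows belonged to 25 members, 1.06% of all members, whose median was 21.6 normalised tags. The number of members expected from the size of the windows was not computed. The share of 1.06% therefore does not show whether starts held more or fewer peaks than other bases of these genes. The other 2343 members overlapped no start window at hand, and no sequence of theirs could be read. No strand was known for 52 of the 303 very long genes, so starts of those genes may be missing from the windows. Besides those printed, peaks overlapped windows of internal starts of ZBTB20, a transcriptional repressor (84.8 normalised tags), and DAB1, the adaptor of reelin signalling (25). Others overlapped such windows of ANK2, the gene of ankyrin-B (11.2), and PCDH15, a cadherin of hair cell tip links (9.89). The ZBTB20 and ANK2 peaks did not reach the starts themselves. The starts named and printed were chosen after their values were seen.

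Very long genes held fewer CTCF peaks per megabase than shorter ones. Within their eligible bases, those over 5 kb from any protein-coding gene end, the 2368 members spread over 246 Mb, a density of 9.61 per Mb (exact Poisson interval 9.23 to 10.0). Genes of 100 to 500 kb held 7139 peaks on 526 Mb, or 13.6 per Mb (13.3 to 13.9). Genes under 100 kb held 4772 peaks, or 17.8 per Mb (17.3 to 18.4). The density in very long genes was 0.708 of that in genes of 100 to 500 kb (0.675 to 0.742) and 0.538 of that in genes under 100 kb (0.512 to 0.566).

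The length limit of 500 kb marked no step. Density was 20.1 per Mb in genes under 50 kb, 16.3 at 50 to 100 kb, 14.6 at 100 to 200 kb, 13.4 at 200 to 300 kb and 12.2 (11.7 to 12.8) at 300 to 500 kb. It was 11.5 (10.9 to 12.2) in the 165 genes of 500 to 750 kb, an interval that overlaps the class just shorter. It was 9.92 in the 72 genes of 750 to 1000 kb, 7.48 in the 49 genes of 1000 to 1500 kb and 7.06 (6.17 to 8.05) in the 17 longest, of 1500 to 3000 kb. The last 2 classes could not be told apart by their intervals. Just above the limit, PPP2R2B, a phosphatase subunit gene of 500.8 kb, and PPFIA2, a synaptic scaffold gene of 501.4 kb, each had 5 members, and SPOCK3, a proteoglycan gene of 501.6 kb, had 1. Just below it, DIAPH3, a formin gene of 498.3 kb, held 4 peaks, CPQ, a carboxypeptidase gene of 498.3 kb, held 2, and ITPR2, a calcium channel gene of 497.8 kb, held 8. At the distance limit, the nearest members inside it lay in GPHN at 5091 bp (35.1 normalised tags), FARS2 at 5118 bp (20.6) and DENND1A at 5236 bp (64.3). The nearest peaks left out lay in GRIP1 at 4949 bp (36.2 normalised tags), CNBD1 at 4805 bp (30.7) and CPNE4 at 4528 bp (67.4).

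**Figure D1:**
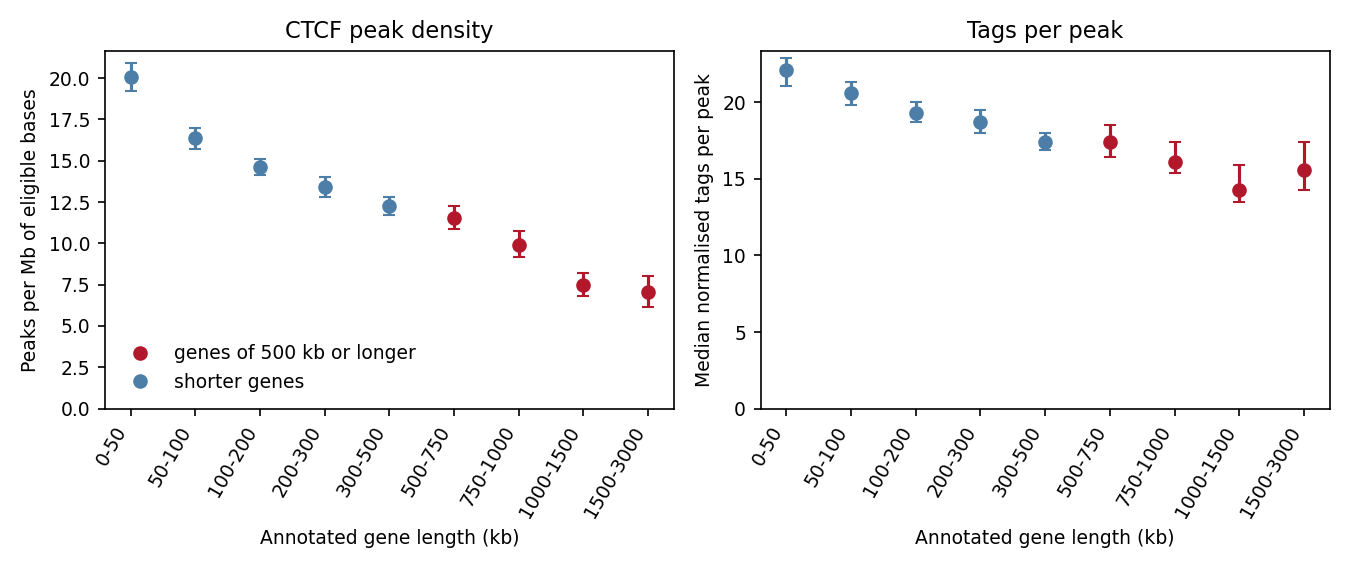
Peaks per Mb of eligible bases (left) and median normalised tags per peak (right) against annotated gene length in kb, with 95% intervals; red, genes of 500 kb or longer, blue, shorter genes. Density was 11.5 per Mb at 500 to 750 kb and 7.06 per Mb at 1500 to 3000 kb, against 20.1 per Mb in genes under 50 kb.

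The members were also weaker, in absolute tags, than peaks in shorter genes, but stood as far above their surroundings. Normalised tags are the tags of a peak scaled to a library of 10000000. Their median was 16.4 in the members (15.9 to 16.9) and 18.5 (18.2 to 19.0) in genes of 100 to 500 kb. The middle 50% of members ran from 10.7 to 26.3 normalised tags, and the full range was 7.03 to 175.2. The authors' fold over the surrounding 10 kb had a median of 13.2 (12.9 to 13.7) in the members and 12.9 (12.6 to 13.1) in genes of 100 to 500 kb. Local background, the normalised tags of a peak divided by that fold, had a median of 1.26 (1.24 to 1.29) in the members, against 1.42 (1.41 to 1.43). The median focus ratio, the caller's share of tags on the side of the peak centre that a single bound site predicts, was 0.844 in the members and 0.845 in genes of 100 to 500 kb. Few members were among the strongest peaks of the genome. In the top 10.07% of autosomal peaks by the caller's score lay 59 members, or 2.49% (1.90 to 3.20), against 5.27% (4.76 to 5.81) of peaks in genes of 100 to 500 kb.

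Set side by side at like local background, the tag medians were close except in the highest quartile. Local background is computed from the tags and the fold, so these medians largely restate the folds and are no separate check. In the lowest quartile of local background, which held 37.6% of the members and 20.8% of peaks in genes of 100 to 500 kb, the median was 13.65 normalised tags in the members and 13.8 in the shorter genes. In the next 2 quartiles the members had 16.7 and 20.3, against 16.9 and 19.8 in the shorter genes. In the highest quartile, with 17.9% of members and 27.4% of the others, the members had 21.9 (20.6 to 23.4), against 25.5 (24.2 to 26.5). What sets the local background was not tested. No control library is named in the file headers, so DNA copy number and unspecific capture cannot be told apart in it. The surrounding 10 kb can also hold tags of neighbouring called peaks, whose part was not tested.

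Part of the sparse binding went with distance from gene ends. At 5 to 20 kb from the nearest protein-coding gene end, very long genes had 14.5 peaks per Mb (12.4 to 16.9), and genes of 100 to 500 kb had 15.4 (14.6 to 16.2), intervals that overlap. At 50 to 100 kb the values were 10.9 (9.81 to 12.1) in very long genes and 13.5 (12.9 to 14.03) in the shorter ones. At 100 to 200 kb they were 9.76 (8.997 to 10.575) in very long genes and 11.3 (10.576 to 12.0) in the shorter ones. Beyond 200 kb very long genes had 976 peaks at 8.16 per Mb (7.65 to 8.68), and genes of 100 to 500 kb had 61 peaks at 9.02 per Mb (6.90 to 11.6), again with overlapping intervals. Median tags in very long genes were 19.8 at 5 to 20 kb and 15.6 beyond 200 kb, against 19.5 and 16.9 in the shorter genes.

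**Figure D2:**
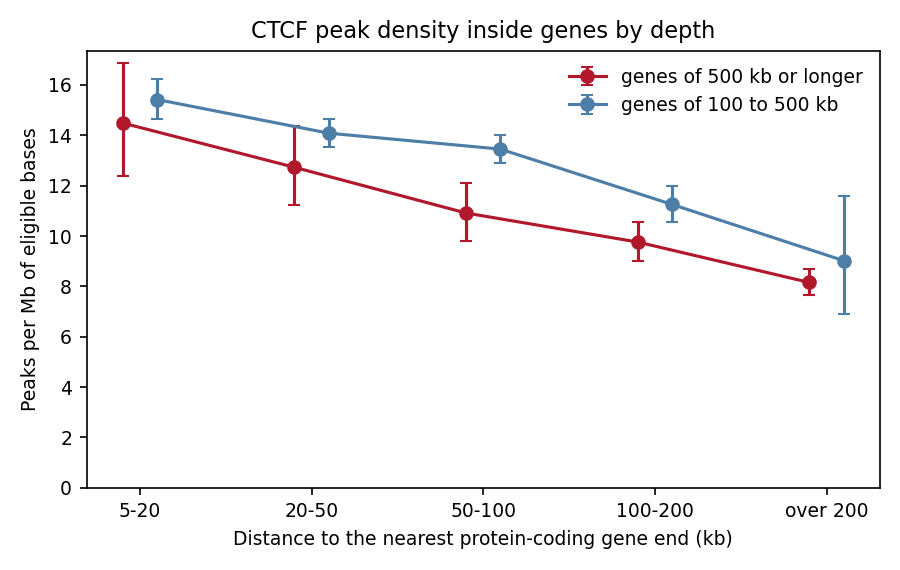
CTCF peaks per Mb of eligible bases against distance to the nearest protein-coding gene end in kb, with 95% exact Poisson intervals; red, genes of 500 kb or longer, blue, genes of 100 to 500 kb. Density was lower farther from ends in both, and the intervals of the 2 classes overlapped at 5 to 20 kb, at 20 to 50 kb and beyond 200 kb. At 100 to 200 kb the intervals met at their edges.

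The lower density held within chromosomes. Of the 22 autosomes, 21 had members, since chromosome 19 has no gene of this length, and on 21 of 21 the density was lower in very long genes than in genes of 100 to 500 kb. At the density of each chromosome's own 100 to 500 kb genes, 3340 members would have been counted, and the observed number was 0.709 of that (0.681 to 0.738). The ratio ran from 0.509 on chromosome 21, which had 9 members, to 0.999 on chromosome 16, where both classes had 11.5 per Mb. On chromosome 16 the gene GSE1 alone held 22 of the 87 members, and the ratio without it was not computed. Median tags were lower in the members on 19 chromosomes. They were higher on chromosome 13, at 18.25 in very long genes against 17.2 in genes of 100 to 500 kb, and on chromosome 18, at 22.4 in very long genes against 18.2. Local background was lower on 21 of 21. Chromosome 3 held the most members, 272 in 33 genes.

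Members lay far apart. Consecutive members of a gene were a median of 51.2 kb apart, with the middle 50% of spacings between 18.4 and 118 kb and a longest spacing of 839 kb. Of 2081 consecutive pairs, 142 were under 5 kb apart and 238 over 200 kb. Another called peak lay within 20 kb of 41.4% of members (39.4 to 43.4), against 49.6% (48.4 to 50.8) of peaks in genes of 100 to 500 kb. The longest stretch of a very long gene with no called peak had a median of 275 kb over the 303 genes. It passed 300 kb in 124 genes and 500 kb in 33.

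Individual genes differed widely. The median gene had 7 members, with quartiles of 5 and 10 and a maximum of 26, and 93 genes had at least 10. Given eligible length, the variance of members per gene was 2.41 times their mean, where counts scattered at random would give a ratio near 1. The exact Poisson interval of the gene's own density lay above the pooled 9.61 per Mb in 25 genes, below it in 24, and held it in 254. Across the 303 genes, density and gene length had a Spearman correlation of -0.27, a description over genes that share 1 library. Across the 236 genes with at least 5 members, density and median local background had a Spearman correlation of 0.53, and density and median tags one of 0.34. Local background can include the tags of neighbouring peaks, so it is not a measure independent of density. Median local background in these genes ran from 0.778 in CTNNA2, an alpha-catenin gene, to 2.84 in CFAP299. Median tags ran from 8.98 in AUTS2 to 39.8 in LRRC37A2, a gene with close copies nearby whose reads may be shared among them; these 4 genes are named for their extreme values.

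The 10 longest genes were mostly below the pooled density. RBFOX1, a splicing regulator (chromosome 16, 5239721 to 7713340, hg38), was the longest at 2474 kb and had 18 members, or 7.31 per Mb. CNTNAP2, a neurexin-family adhesion gene (chromosome 7, 146116801 to 148420998), had 6 members on 2304 kb, or 2.62 per Mb (0.960 to 5.69). PTPRD, a receptor tyrosine phosphatase that organises synapses, had 20 members (8.74 per Mb), and DLG2, a postsynaptic scaffold, had 22 (10.2 per Mb). CSMD1, a regulator of complement, had 11 (5.37), MACROD2, an ADP-ribose hydrolase, had 12 (5.92), and EYS, a protein of the photoreceptor matrix, had 13 (6.65). LRP1B, a lipoprotein receptor relative, had 11 (5.82), CTNNA3, an alpha-catenin, had 10 (5.49), and PCDH15 had 10 (5.51). DLG2 alone of these 10 lay above 9.61 per Mb, and its interval of 6.37 to 15.4 included that value.

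In CNTNAP2 the first 1129 kb from the 5′ end held no called peak. Its 6 members had 9.11, 9.11, 31.5, 40.3, 21.1 and 13 normalised tags in order along the gene. The last 4 of them stood between 2126 and 2170 kb from the 5′ end. In EYS the longest stretch free of peaks was 833 kb. RBFOX1 had 18 members of 7.81 to 46.8 normalised tags, with a longest free stretch of 343 kb.

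NTM, a GPI-anchored adhesion gene (chromosome 11, 131370615 to 132336822), had the most members, 26 at 27.2 per Mb (17.8 to 39.8). They ranged from 7.55 to 86.9 normalised tags with a median of 21.85. PDE4D, a phosphodiesterase that breaks down cyclic AMP, had 23 (14.9 per Mb), and GPHN, the scaffold gephyrin of inhibitory synapses, had 18 (17.2 per Mb). The neurexin gene NRXN3 and the glypican gene GPC5 followed with 17 each, a number they shared with other genes. The 30 genes with most members held 509, or 21.4% of all.

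GSE1, which encodes a coiled-coil nuclear protein (chromosome 16, 85169512 to 85676200), was the densest very long gene. It had 22 members on 507 kb, or 44.3 per Mb (27.8 to 67.1). They ran from 8.85 to 175.2 normalised tags with a median of 36.7, and its longest free stretch was 73.0 kb. The remaining genes of highest density among those with at least 5 members were HIVEP3, a zinc finger factor, with 12 members at 24.0 per Mb, THSD4 with 16 at 23.7, PALM2AKAP2, of a kinase-anchoring protein, with 12 at 23.001, ANK3, of ankyrin-G, with 16 at 22.9, and ANK2 with 15 at 22.5. KSR2, a scaffold of Ras signalling, had 11 at 21.7, the semaphorin receptor PLXNA4 had 11 at 21.3, and the zinc finger factor GLIS3 had 14 at 21.3.

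**Figure D3:**
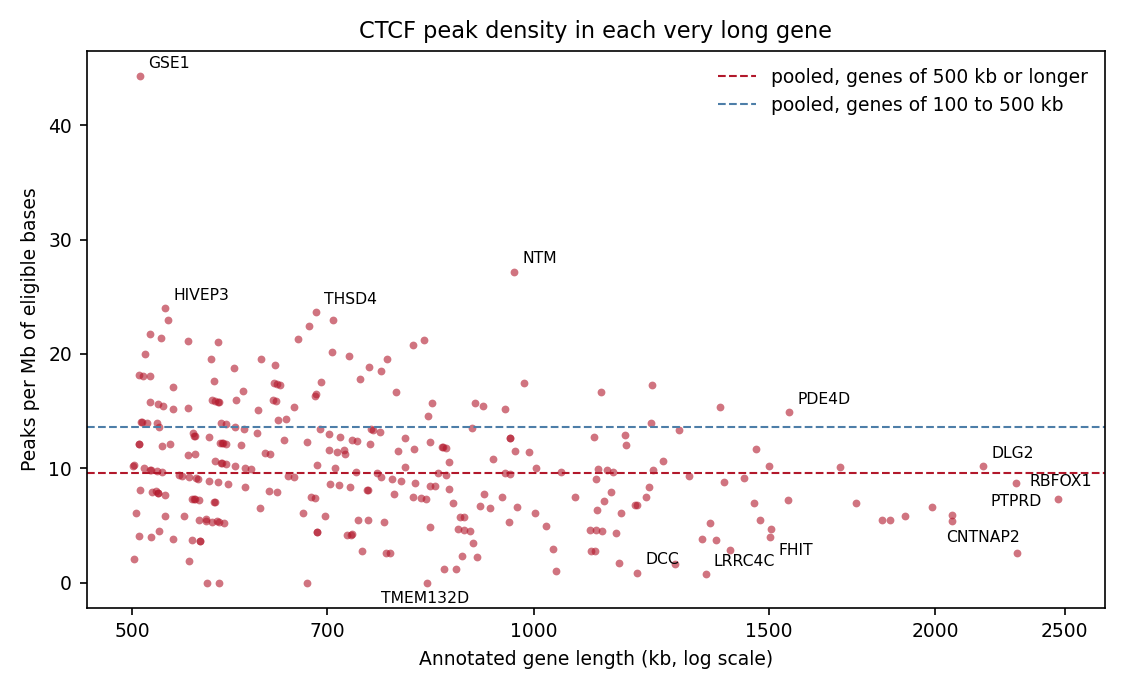
CTCF peaks per Mb of eligible bases in each of the 303 very long genes against annotated length in kb (log axis); dashed lines give the pooled density of very long genes (red, 9.61 per Mb) and of genes of 100 to 500 kb (blue, 13.6 per Mb). GSE1 at 44.3 per Mb and NTM at 27.2 per Mb lie highest, and 4 genes have no peak over 5 kb from gene ends.

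At the other end, 4 very long genes had no member. They were TMEM132D, a membrane protein gene of 832 kb, GRIK2, a kainate receptor subunit of 676 kb, GALNT17, a glycosyltransferase-family gene of 581 kb, and SUPT3H, of a transcription coactivator subunit, of 569 kb. A count of 0 allows up to 3 peaks per gene, which is 3.65 per Mb in TMEM132D, 4.50 in GRIK2, 5.25 in GALNT17 and 5.47 in SUPT3H. The exact Poisson interval used for the other genes ended higher, at 4.49 per Mb in TMEM132D, 5.54 in GRIK2, 6.46 in GALNT17 and 6.72 in SUPT3H, below the pooled density by either measure. A single member was found in 7 genes, of which those named here were chosen after their values were seen. LRRC4C, a synaptic adhesion gene of 1345 kb, had 1 member of 8.33 normalised tags and a free stretch of 1165 kb. DCC, the netrin receptor gene, of 1196 kb, had 1 of 8.59 and a free stretch of 1040 kb. Others were SGCD (22.9 normalised tags), CELF2 (40.1), PTPRK (22.1) and SPOCK3 (27.8).

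**Figure D4:**
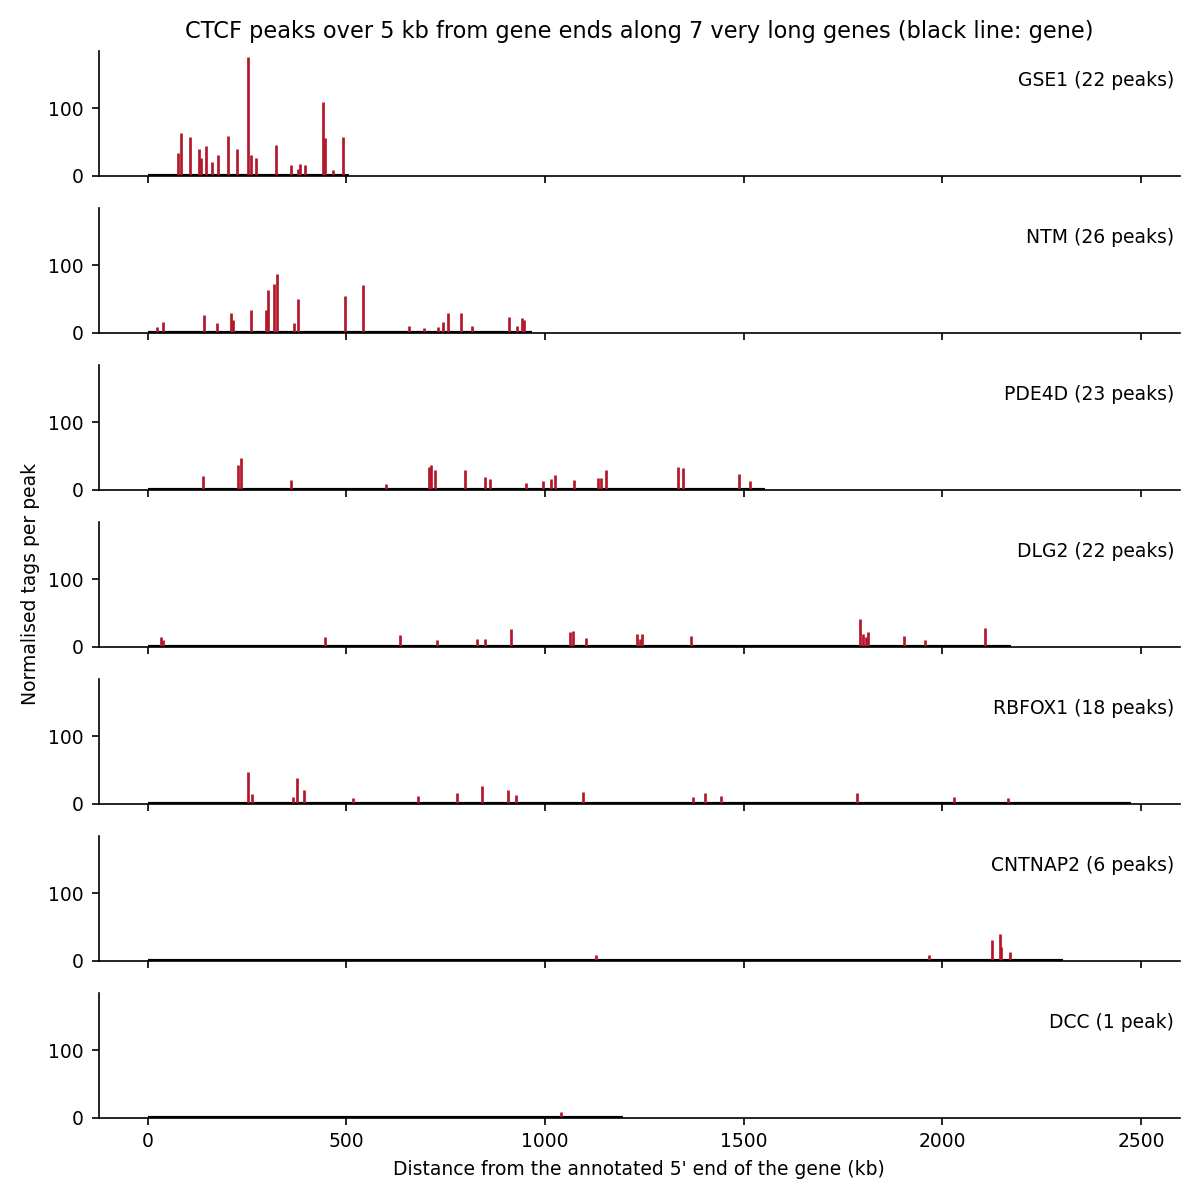
Members along 7 very long genes: each red bar is a peak, placed by distance from the annotated 5′ end in kb, with its normalised tags as height; the black line is the gene. GSE1 (22 peaks on 507 kb) and DCC (1 peak on 1196 kb) show the extremes, and 4 of the 6 CNTNAP2 peaks stand together near the 3′ end.

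The strongest members reached the level of strong peaks elsewhere. The highest lay in GSE1 (chromosome 16, 85420735 to 85421083) with 175.2 normalised tags (157 to 195), 53.1-fold over its surroundings, and ranked 84 among all autosomal peaks. The next lay in PDE4B, another cyclic AMP phosphodiesterase gene (chromosome 1, 66242665 to 66243013), with 130.7 normalised tags (115 to 148) at 57.5-fold. CAMTA1 followed with 118.7, MECOM, the gene of a zinc finger oncoprotein, with 112.4, a second GSE1 peak with 109.1, and FGF12, an intracellular growth factor relative that modulates sodium channels, with 103.6. Then came NRG1, a ligand of ERBB receptors, with 98.6, THSD4 with 91.4, HIVEP3 with 87.2, NTM with 86.9, SLC14A2 with 86.7, the adhesion gene LSAMP with 85.4, ZBTB20 with 84.8, NRG1 again with 83.8, and STARD13, which encodes a lipid-transfer domain protein, with 81.5.

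The 2 NRG1 members lay 1.15 kb apart, each within the 10 kb around the other, and had the highest local background of all members, 9.38 and 9.23. At 8.93 and 10.7-fold over it, both were below the members' median fold of 13.2. CAMTA1 had a member with a background of 6.27, the cadherin gene CDH13 one with 5.40, and SCHIP1 one with 5.08. Of these, the CAMTA1 and SCHIP1 members lay over annotated internal starts. No strand was at hand for NRG1 or CDH13, so whether their members lay over starts of those genes was not assessed. The folds of the CAMTA1, CDH13 and SCHIP1 members were 8.22, 4.57 and 4.25, the last 2 close to the authors' minimum of 4.

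Along the gene, members were densest in the last 20%, at the 3′ end. Strand was known for 251 of the 303 genes, with 2011 members. In the first 10% of the gene, counted from the 5′ end, density was 10.2 per Mb, and from 10 to 80% it lay between 7.78 and 9.78. It was 12.2 (10.8 to 13.8) at 80 to 90% and 14.3 (12.6 to 16.0) in the last 10%. The last 10% had 1.40 times the density of the first 10% (1.16 to 1.69) in very long genes and 1.45 times (1.28 to 1.65) in genes of 100 to 500 kb, so the intervals overlap. Of the 251 genes, 108 had more members in the last 10% than in the first, 69 had fewer and 74 had equal numbers. MARCHF1, a ubiquitin ligase gene, had 6 against 0, the calcium channel gene CACNA1C had 5 against 2, KAZN had 5 against 4 and CNTNAP2 had 4 against 0; MARCHF1 and KAZN were chosen for naming after their values were seen. Members 5 to 20 kb from the 3′ end had a density of 16.6 per Mb and a median of 26.3 normalised tags, against 13.4 per Mb and 18.75 at the same distance from the 5′ end. A called peak lay within 1 kb of the annotated 5′ end in 58 of the 251 genes, or 23.1% (18.0 to 28.8).

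**Figure D5:**
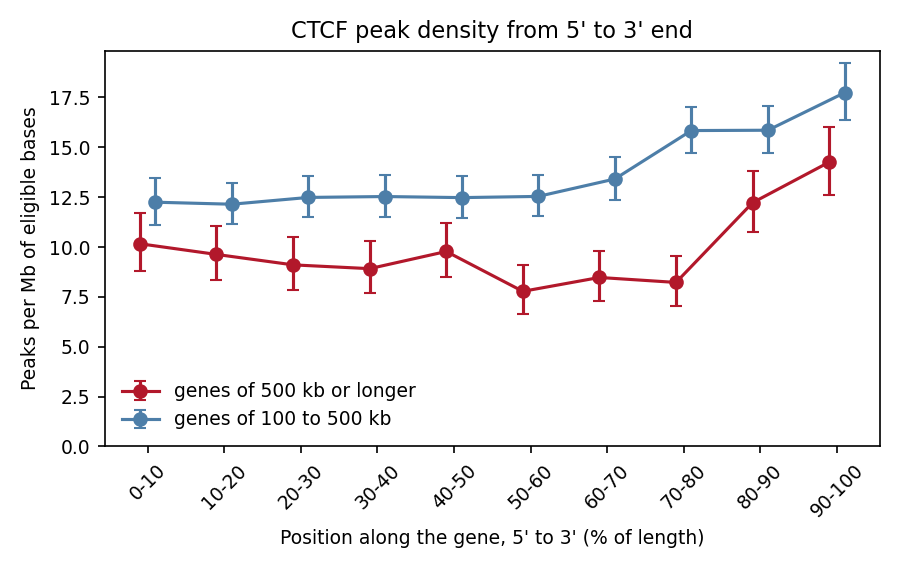
CTCF peaks per Mb of eligible bases by position along the gene, from the 5′ end to the 3′ end in % of length, with 95% exact Poisson intervals; red, genes of 500 kb or longer, blue, genes of 100 to 500 kb. The last 10% stood at 14.3 per Mb in very long genes and 17.7 per Mb in genes of 100 to 500 kb, each above the first 10%.

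Genes nested within very long genes took a small share of the members. A second protein-coding gene covered 40 members (1.69%), at 15.6 per Mb (11.1 to 21.2). An RNA gene covered 192 (8.11%), at 11.1 per Mb (9.58 to 12.8), against 9.50 (9.10 to 9.90) outside RNA genes.

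Grouped by function, the very long genes spanned a range of densities around the pooled 9.61 per Mb and median of 16.4 normalised tags, with 299 of 303 genes having a member. The lists overlap, and their values are descriptions. Scaffolds and signalling enzymes had 270 members in 28 of 28 very long genes, at 12.2 per Mb (10.8 to 13.7) and a median of 16.0 normalised tags. PDE4D had 23, DLG2 had 22 and PDE1C, a calcium-dependent phosphodiesterase, had 16. Ion channels and their partners had 96 members in 10 of 10 genes, at 10.8 per Mb (8.73 to 13.2), with 14 each in the calcium channel genes CACNA2D3 and CACNA1C and the potassium channel gene KCNMA1. Axon guidance genes had 104 in 12 of 12, at 10.7 per Mb (8.75 to 13.0). Among them the slit receptor ROBO1 had 15, the neuron navigator NAV2 had 15 and ROBO2 had 12. Genes of transcription and RNA-binding proteins had 183 in 22 of 22, at 9.81 per Mb (8.44 to 11.3), led by RBFOX1 with 18, CAMTA1 with 17 and the histone deacetylase HDAC9 with 14.

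Other lists lay lower. Synaptic adhesion genes had 222 members in 27 of 27, at 8.45 per Mb (7.37 to 9.63). NTM had 26, NRXN3 had 17 and the teneurin TENM2 had 17. Growth factor signalling genes had 44 in 6 of 6, at 8.24 per Mb (5.99 to 11.1), with 11 in NRG1, 9 in FGF14 and 8 in FGF12. Receptor tyrosine phosphatases had 53 in 6 of 6, at 8.06 per Mb (6.04 to 10.5), with 20 in PTPRD, 13 in PTPRM and 10 in PTPRN2. Genes of extracellular matrix and proteoglycans had 141 in 18 of 18, at 7.82 per Mb (6.58 to 9.23), with 17 in GPC5, 13 in EYS and 11 in CSMD1. Cadherins and catenins had 75 in 9 of 9, at 6.86 per Mb (5.39 to 8.59), with 14 in CDH13 and 10 each in CTNNA3 and PCDH15. Glutamate and GABA receptor genes had 37 in 6 of 7, at 6.48 per Mb (4.56 to 8.94), with 10 in the delta receptor GRID1 and 7 in the metabotropic receptor GRM8, and none in GRIK2.

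Genes at common fragile sites had 194 members in 21 of 21 very long genes, at 6.72 per Mb (5.80 to 7.73), with a median of 15.35 normalised tags and a median local background of 1.13. DLG2 had 22 members and MAGI2, a scaffold of cell junctions, had 13. Of these 21 genes, 15 exceed 1 Mb. The 66 very long genes over that length held 659 members at 7.33 per Mb, a value inside the interval of the list. In the cadherin list 6 of 9 genes exceed 1 Mb, while in the scaffold list 5 of 28 do. Yet the least dense list, glutamate and GABA receptors at 6.48 per Mb, had 1 of 7 genes over 1 Mb. Axon guidance had 3 of 12 at 10.7 per Mb, and synaptic adhesion had 9 of 27 at 8.45 per Mb. The part of length in the differences between lists was not tested.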

How the data were processed

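The study mapped CTCF by ChIP-seq in MDA-MB-435 cells, and 1 of its 4 samples, asynchronous replicate 1, was used. The submitters' processing notes name Bowtie2, HOMER and the build hg38; the tools' versions were not given in the sources used here. Peaks of 349 bp were called on that library alone, with no control library named, a false discovery rate of 0.001 (15 tags) and at least 4-fold over the surrounding 10000 bp, per the file headers. The deposited tag signal per peak had been scaled by the authors to 10000000 tags. As deposited, the focus ratio is a fraction of tags and the score is that of the authors' caller. The fold is the authors' ratio of tag density in the peak to that around it. The authors' p-value for each peak was not used. Where no peak was called, the list gives no level.

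Genes, lengths and ends came from a RefSeq table of GRCh38.p14 without exons, with 19122 autosomal protein-coding genes. Strand and start sequences came from the RefSeq promoter table. No peak sequence outside these windows was read, so the planned motif search in peaks was not run and start windows took its place. Positions in several genes went to the longest, and 12 members in 2 very long genes count for each in values per gene. Density is peaks per Mb of eligible bases with exact Poisson 95% intervals. Shares have Clopper-Pearson intervals, medians order-statistic ones and density ratios conditional binomial ones. Intervals of tags per peak came from tags rescaled to the 19210460 of the library. PCR duplicates are not independent molecules, and neighbouring peaks are not independent counts.

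The members, gene lists and classes were chosen with earlier results of these data known. Genes were named by rule: the 10 longest, the 10 with most members (ties by length), the 10 densest with at least 5, those of the 15 strongest members and of the 5 of highest local background, those without a member, the leading 3 of each list, and those at the limits. Some genes selected this way are not reported here. Alternatives varied the limits of length and distance, the peak threshold, merging, nested genes, genes with LOC symbols, chromosomes and background. Computation used scipy 1.17.1, pandas 2.3.3 and numpy 2.4.6 under Python 3.11.15, and plots matplotlib 3.10.9.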

Additional observations from a re-analysis of the deposited data

Results flagged for a closer look

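The rule for members left out the X chromosome. Its 11 protein-coding genes of 500 kb or longer held 38 peaks over 5 kb from gene ends, at 3.64 per Mb (exact Poisson interval 2.58 to 4.998). These peaks had a median of 10.65 normalised tags, a median local background of 0.602 and a median of 17.05-fold over the surrounding 10 kb. They stand here because they lie outside the main measurement and exceed the 3 peaks that a count of 0 allows. DMD, the dystrophin gene, held 6 of them on 2220 kb, or 2.71 per Mb (0.996 to 5.91).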

How the results depend on the processing

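Of 99 recomputed values, 28 moved and 71 did not, where a number of members counted as moved beyond 1.5 times and any other value beyond its 95% interval. Leaving out genes with LOC symbols removed none of the 303 genes, so the unmoved values of that alternative could not have moved. The density in very long genes stayed below that in shorter genes of at least 100 kb under each alternative, at 0.540 to 0.752 of it. With peaks at or above the median score only, 901 members remained at 3.66 per Mb, a density ratio of 0.596, with medians of 29.7 normalised tags, 21.9-fold, a background of 1.39 and a focus ratio of 0.880; 26.5% had a neighbour within 20 kb and 13.9% of genes had no member. With at least 8-fold, 1922 members remained, density was 7.80, the ratio 0.742, tags 19.0, fold 15.4, background 1.21, focus ratio 0.857 and the neighbour share 31.0%. By construction, both thresholds remove weak peaks. With genes of 1 Mb or longer, 659 members had a density of 7.33, a ratio of 0.540, 14.8 tags, a background of 1.16, a neighbour share of 38.5% and 0% of genes without a member. With genes of 300 kb or longer, 4338 members had a density of 10.6, a ratio of 0.752 to genes of 100 to 300 kb (the others are to genes of 100 to 500 kb), a background of 1.31 and a neighbour share of 43.4%. Beyond the genes added or removed, the cause was not tested.

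No paired analysis was possible because 1 library was analysed and no result comes from a test. Leaving out a replicate was likewise not run. A gene without a called peak may hold sites below the threshold of 15 tags. A lower local background lowers the level a peak needs for 4-fold, but not this fixed threshold. The weakest members, at 7.03 normalised tags, stood 5.01 to 6.91-fold over their surroundings, above the minimum of 4. The part of the fixed threshold in the lower density of very long genes was not tested. Gene ends follow the longest annotation, whichever transcript the cells used.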

Other observations

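Some members stood in tight groups. Within 50 kb, 6 members lay together in each of KSR2 (37.6 kb from first to last centre), CSMD2 (41.4 kb) and MARCHF1 (43.5 kb), the largest such groups found. The KSR2 group had 52.1, 22.1, 19.5, 15.6, 12.2 and 41.1 normalised tags in order along the chromosome, so its outer members were its strongest. RBFOX3, a neuronal splicing regulator, had 4 members within 12.6 kb. These genes were chosen after their values were seen.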
